A study of Mus musculus with 5 samples.

Results

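Codes M343 to M350 are an unbroken run of 8 microRNA features on a spotted array, out of 406 microRNA codes in all, and every one of them was far dimmer after 4 days of neural induction than in undifferentiated cells. The run was chosen by its values. It holds M346 and M348 and extends in both directions for as long as the mean spot intensity minus local background of a code on the 4 day arrays was below 0.333 of its mean on the 0 hour arrays. The drop is therefore what defines the codes, and its size is given as a description with no test. What the choice did not use, such as the spread among the spots of a code and the deviations of arrays within a group, is given after it. So is the place on the slide, which follows from the code numbers.

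MicroRNAs are short RNAs that guide a silencing complex to messenger RNAs, mostly through the seed near their 5′ end, and lower the output of those messages. Many are cut from one shared primary transcript with their genomic neighbours, so that members of such a cluster often change together. Pluripotent mouse cells are known for a few abundant clusters that decline when the cells differentiate, and neural cells for another set that appears. The sources used here do not say which microRNA stands behind a code of this array. No name, role, sequence or genomic position is therefore attached to M343 to M350, and consecutive code numbers are not evidence of a shared transcript.

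One group consisted of P19C6 cells, a clone derived from P19 mouse embryonal carcinoma cells, kept for 4 days as aggregates in suspension in N2B27, a serum-free medium that induces neural stem cells (2 arrays). The other was undifferentiated P19C6 cells, labelled 0 hour (3 arrays). Total RNA was labelled by PCR with a Cy5 primer, and each array held 1296 spots, 3 per code. The titles give library number 2 to every 4 day array and library number 1 to every 0 hour array, so that day and library cannot be told apart, and the spread between arrays may be technical only. The labelled cell types could not be checked against markers, since no code is paired with a name.

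Over all 406 codes, the median intensity was 382 to 508 on the 4 day arrays and 493 to 652 on the 0 hour arrays. The floor of an array, set at the mean plus 2 SD of its 12 spots with a B code, was 136 to 242 at 4 days and 433 to 461 at 0 hour. All intensities are spot minus local background in arbitrary scanner units, with no scaling between arrays unless stated. They cannot be set against each other between codes, since each probe binds and labels differently.

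M346 and M348, on which the run is built, are given first together with M347 and M350. M350 had an intensity of 2549 and 3338 on the 4 day arrays, against 26440, 46718 and 23599 on the 0 hour arrays. That is 9.13% of the 0 hour mean. M348 had 2212 and 2208 at 4 days, against 23495, 42512 and 24624 at 0 hour, which left 7.31%, the smallest remainder in the run. Its 4 day arrays were nearly alike, while the 0 hour arrays differed mainly through replicate 2, which was the brighter one. For M346 the values were 1466 and 1694 at 4 days, against 16841, 27077 and 12419 at 0 hour, or 8.41%. M347 had 1673 and 1842 at 4 days, against 8597, 16617 and 11596 at 0 hour, or 14.3%. In all 4 codes the groups were separated by a wide gap.

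The other 4 codes held both the largest remainder of the run and one of the smallest. M344 had an intensity of 2022 and 2039 on the 4 day arrays, against 8275, 15186 and 8354 on the 0 hour arrays, and kept 19.1%, more than any other code of the run. M345 had 753 and 385 at 4 days, against 7233, 10665 and 3785 at 0 hour, or 7.87%. It was the code of the run whose 4 day arrays differed most relative to their mean, and its lowest 0 hour array was replicate 3. M349 had 708 and 497 at 4 days, against 5008, 7923 and 4875 at 0 hour, or 10.2%. M343 had 520 and 479 at 4 days, against 2247, 5783 and 4004 at 0 hour, or 12.5%, and its 0 hour arrays were the most uneven of the run after scaling. Here too no 4 day array reached the level of any 0 hour array.

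**Figure D1:**
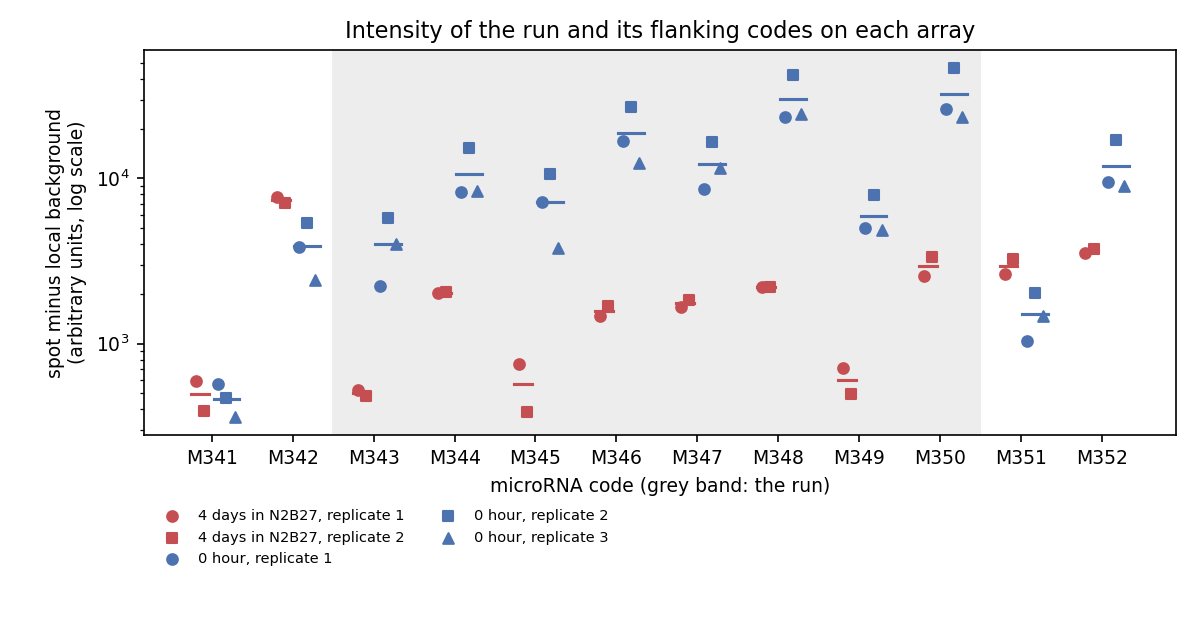
Spot minus local background (vertical axis, arbitrary units, log scale) of the 8 codes of the run (grey band) and the 2 codes next to it on either side, with 1 point per array and a short line at each group mean. Within the band the 2 arrays of 4 days in N2B27 lie between 385 and 3338 and below all 3 arrays of 0 hour of the same code, while M342 and M351 on its borders are brighter at 4 days.

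Set array against array, each code gives 6 ratios of a 4 day to a 0 hour array. All 48 such ratios of the run were below 0.333, between 3.61% and 24.6%. Over all 406 codes, 7.14% had a mean ratio below 0.333, and 51.5% had both 4 day arrays below all 0 hour arrays. Non-overlap of the groups in this direction was thus common on these arrays, whereas a mean ratio below 0.333 was not. Both properties follow from the choice of the 8 codes, so nothing is read from their count. The median ratio of the run was 9.64% of the 0 hour mean.

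On the 4 day arrays all 8 codes remained over the floor, as did 304 and 324 of all 406 codes. The 8 lay at 2.15 to 24.5 times the floor at 4 days and at 4.88 to 108 times at 0 hour. The floor itself was lower at 4 days, at 242 and 136 against 461, 433 and 440, so these multiples cannot be compared between groups. M343, M345 and M349 came closest to the floor at 4 days. Their intensities there, 385 to 753, were not far above the medians of all codes, 508 and 382. Whether these intensities are specific signal was not tested. M343 lay at 2.15 and 3.52 times the floor at 4 days, M345 at 3.11 and 2.83 times and M349 at 2.92 and 3.65 times. M350, in contrast, was still at 10.5 and 24.5 times the floor. In bulk RNA, fewer cells that hold a microRNA and less of it per cell cannot be told apart, so a remainder of this size may be either.

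The drop can also be read without any scaling, from the place of a code when the 406 codes of an array are ordered from the brightest. A monotone change of the scale does not move that place. M348 stood at place 76 and 85 on the 4 day arrays, against 7, 6 and 3 on the 0 hour arrays. M350 stood at 72 and 68 at 4 days, against 6, 3 and 4 at 0 hour. At the other end, M343 stood at 200 and 181 at 4 days, against 56, 39 and 32 at 0 hour, and M345 at 156 and 204, against 24, 28 and 34. None of the 8 codes was among the 50 brightest on either 4 day array, while 8, 8 and 7 of them were on 0 hour replicates 2, 3 and 1. The summed intensity of the run was 1.07% and 1.06% of that of all microRNA codes at 4 days, and 12.7%, 14.5% and 14.0% at 0 hour. These are shares of brightness, not of RNA. Places and shares come from the same intensities as the choice, so their fall follows from it and is a description only.

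The run has sharp borders. M342, just before it, had an intensity of 7708 and 7121 on the 4 day arrays, against 3864, 5406 and 2437 on the 0 hour arrays, a ratio of 1.90 between the means. M351, just after it, had 2644 and 3245 at 4 days, against 1033, 2027 and 1462 at 0 hour, a ratio of 1.95. Both border codes were thus brighter on every 4 day array than on every 0 hour array before scaling. Under 6 scalings between arrays, described further on, the log2 fold change of M351 ran from 0.06 to 1.18 and that of M342 from -0.03, with cyclic loess, to 1.07. Since no code of the run had a ratio above 0.19, the same 8 codes result from any threshold between that value and 1.90. One code further, M352 had 3547 and 3729 at 4 days, against 9546, 17163 and 8999 at 0 hour. Its remainder of 30.6% was also below the threshold, but M351 separates it from the run. On the other side, M341 had 593 and 392 at 4 days, against 567, 466 and 358 at 0 hour, and these arrays overlapped.

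Along the whole code series, 29 codes had a ratio below 0.333. Apart from the run of 8 they formed 15 single codes and 3 pairs, so that the next longest run held 2 codes. Just inside the threshold lay M280 at 32.9% and M180 at 33.3%, and just outside it M35 and M288 at 33.5%. The codes of the run were far from this limit, and 2 codes outside the run, M200 and M304, had a ratio as low as that of M344 or lower.

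**Figure D2:**
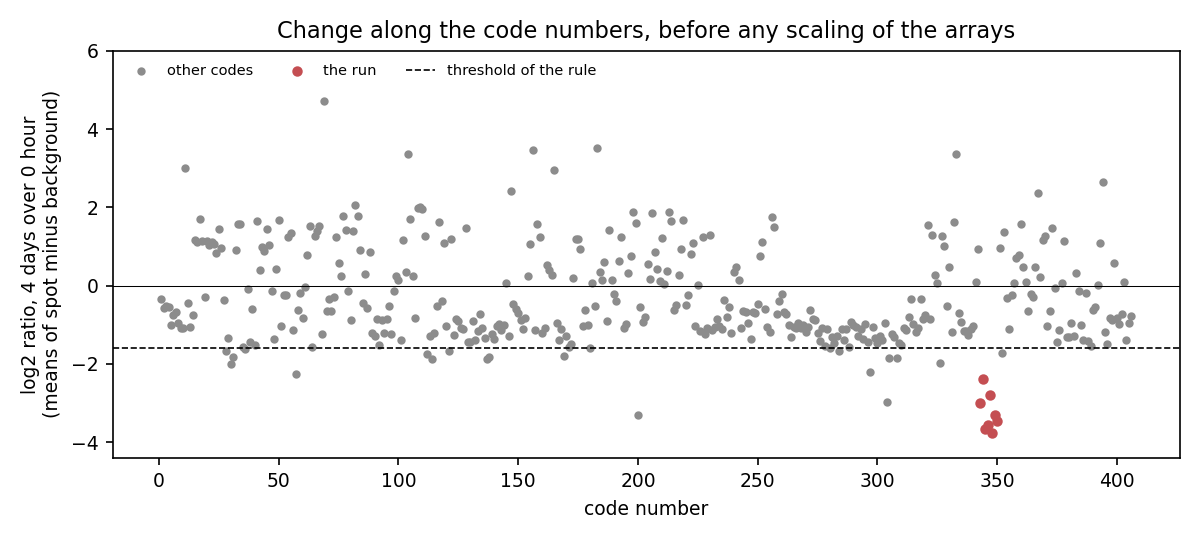
Log2 ratio of the 4 day mean to the 0 hour mean of spot minus local background (vertical axis) for each of the 406 microRNA codes in order of code number (horizontal axis), with the run in red and the other codes in grey. The 8 codes of the run lie together below the dashed line at a ratio of 0.333, and only 2 other codes, M200 and M304, reach as low.

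The spread among the 3 spots of a code on an array was not used in the choice. The coefficient of variation over these spots had a median of 10.7% in the run at 4 days and 11.8% at 0 hour, close to the 12.6% and 11.4% over all microRNA codes, and its highest value was 20.8% for M343 on replicate 2 of the 4 day group. No spot of the run had an intensity at the scanner ceiling of 65535, the brightest being a spot of M350 at 50774. Whether single pixels within a spot reached it was not tested. None was marked to be ignored. The local background of the run was at most 49.5, low beside every intensity given here.

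The place on the slide separates code numbers. The slide holds 4 blocks of 18 by 18 spots, and consecutive codes were printed into different blocks, so that the run put 2 codes into each of them. In every block they occupied row 16 and columns 1 to 6. This place follows from the code numbers, which the choice used, so nothing is read from it. M343 and M347 shared one block, M344 and M348 another, M345 and M349 the third, and M346 and M350 the fourth. The layout was the same on all 5 arrays.

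A total of 28 microRNA codes outside the run touched one of its codes, sideways, vertically or at a corner. Their ratio of 4 day to 0 hour means ran from 0.25 to 5.12 with a median of 1.10, and it was above 1 for 16 of them. The 2 that lay under 0.333 were M326, which touches M346 and M350 and kept 25.2%, and M352. M367, which touches M343 and M347, was the code with the highest ratio. No touching code had a ratio as low as the highest in the run, 0.19 for M344. For M351, which touches M347, this is partly set by the choice, since its ratio ended the run. Since the 8 codes share the same rows and columns of their blocks, an effect tied to that grid position was not tested beyond these values.

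**Figure D3:**
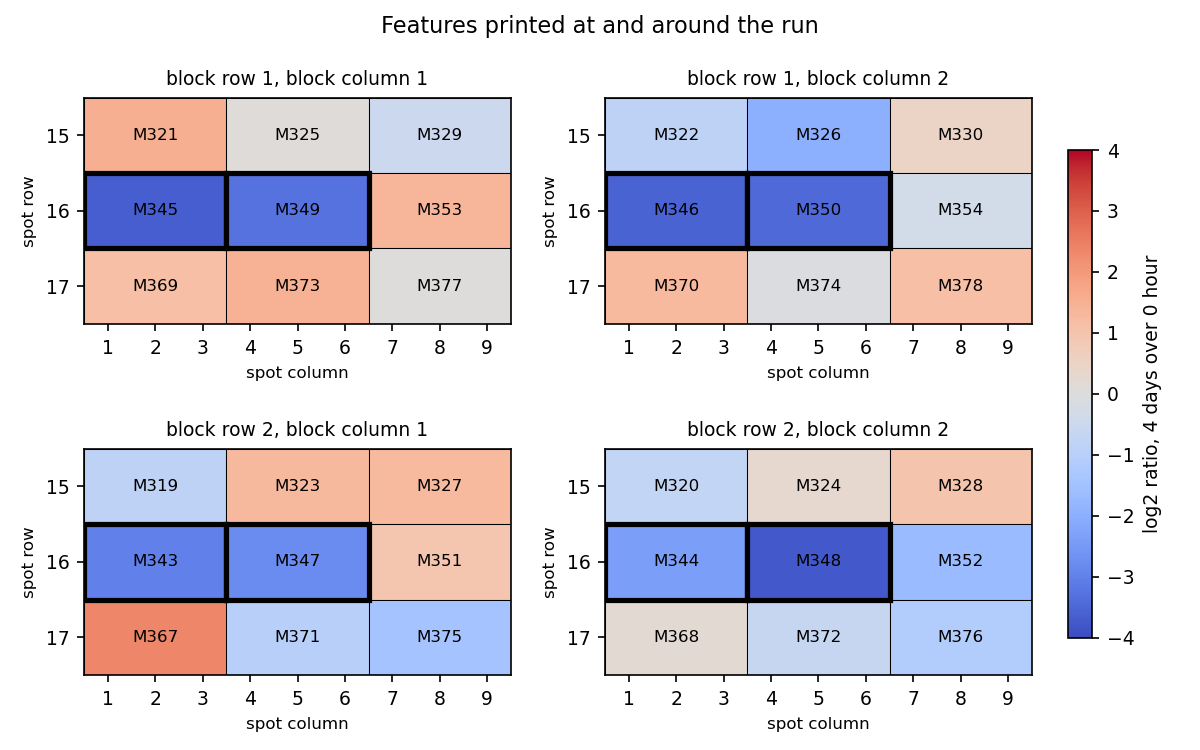
Each panel is one of the 4 blocks of the slide and shows spot rows 15 to 17 and spot columns 1 to 9, with 3 neighbouring spots per code. The colour gives the log2 ratio of 4 day to 0 hour means before scaling, and thick outlines mark the 8 codes of the run, which are the darkest blue in each panel, while the codes around them run from blue to red.

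For the comparison across all codes, the intensities were corrected for background, converted to log2 and quantile normalized, and the 323 codes above the floor on at least 2 arrays were fitted with limma. On this scale the median log2 fold change of the 8 codes, 4 days minus 0 hour, was -3.79, against 0.15 over all 323. The smallest change was that of M344, at 10.52 ± 0.12 at 4 days (SD, n = 2 arrays) and 13.37 ± 0.10 at 0 hour (SD, n = 3 arrays), a log2 fold change of -2.85 with an SE of 0.21. The largest was that of M348, which stood at 10.64 ± 0.14 at 4 days and 15.09 ± 0.26 at 0 hour, -4.45 with an SE of 0.24. Between them lay M343 and M347 at -3.29, M349 at -3.69, M345 at -3.89, M350 at -4.16 and M346 at -4.19, with SEs of 0.21 to 0.31. By limma's two-sided test, at a Benjamini-Hochberg adjusted p of 0.05 over 323 codes, 18.3% of the tested codes were lower at 4 days. The 8 codes were all among them, which follows from how they were chosen. That share is 59 codes, beside 86 higher ones. The split was 48 lower and 102 higher without scaling, and 66 and 116 with the median as the base. It was 65 lower and 59 higher with cyclic loess, and 120 and 68 with the 75th percentile as the base. With the P-coded features as the base it was 143 and 50.

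The estimated log2 fold changes of the 8 codes spanned 1.60, beside SEs of 0.21 to 0.31 for single codes. This span lies between the extremes of 8 estimates, and each probe binds and labels differently. Whether the codes changed by different amounts was not tested. In the file headers, replicates 1 of the groups share a part of the image folder's name, and replicates 2 share another. Replicate 3 of the 0 hour group shares its own with no array. Whether this name marks a batch was not tested. The change can thus be read once within each shared name, here after quantile normalization. Within replicates 1 the median log2 difference of the 8 codes, 4 days minus 0 hour, was -3.72, with a range of -4.39 to -2.64. Within replicates 2 it was -3.89, with a range of -4.56 to -2.98. With the replicate number as a block it was -3.83, a fit in which 0 hour replicate 3 adds nothing to the contrast.

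After quantile normalization, 24 of the 28 pairs that the 8 codes form had the same order of change within both replicate numbers. M344 changed least in both. M346 changed most within replicates 1, at -4.39, and M348 most within replicates 2, at -4.56. The replicate numbers differed most for M348, at -4.09 and -4.56, and for M343, at -2.84 and -3.29. Before scaling, M345 changed most within replicates 2, at -4.79, against -4.27 for M348. The replicate numbers then differed most for M345, at -3.26 and -4.79, and for M343, at -2.11 and -3.59. These orders come from 1 array per group and were not tested.

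On the normalized scale, the deviations of the 8 codes from their group means had both signs on every array. Whether this exceeds the spread between arrays was not tested. At 0 hour, after quantile normalization, M343, M347, M348 and M349 were highest on replicate 3, and M344 and M350 also, by small margins. M345 and M346, in contrast, were lowest on that array, at 0.36 and 0.20 below their 0 hour means. On 0 hour replicate 1, only M345 and M346 lay above their means. The deviations reached -0.53 and 0.45 for M343 on replicates 1 and 3 and stayed within 0.12 of the mean for M344. The median SD of the run over the 0 hour arrays was 0.22, and over all tested codes it was 0.29.

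At 4 days, 5 of the 8 codes were higher on replicate 1 and 3 on replicate 2. The difference between the arrays was 0.58 for M345 and at most 0.22 for the other 7. Before scaling, all 8 codes were brightest at 0 hour on replicate 2, but so were 89.2% of the tested codes. The intensity of the run on that array was 1.47 to 2.57 times that on replicate 1, and the median of all 406 codes 1.32 times. With 2 and 3 arrays in a group, no correlation of these deviations between codes of the run was computed.

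**Figure D4:**
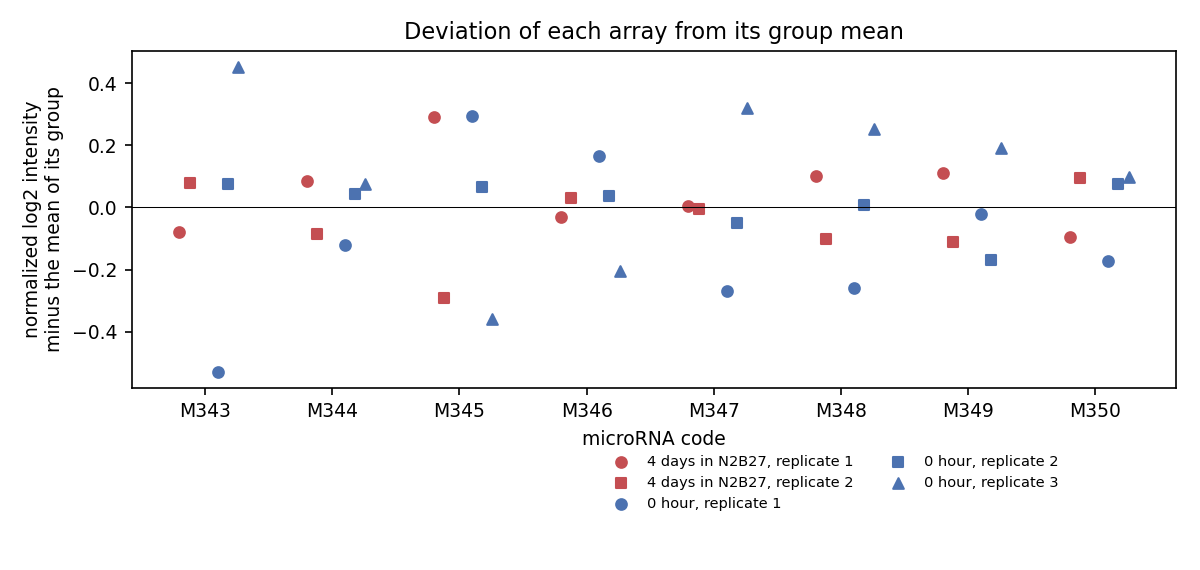
Normalized log2 intensity minus the mean of its own group (vertical axis) for each of the 8 codes of the run, with 1 point per array and the 2 arrays of 4 days in N2B27 left of the 3 arrays of 0 hour. On 0 hour replicate 3 (triangles) M345 and M346 lie below their means and the other 6 codes above theirs, and the points of M345 at 4 days are the farthest apart.

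How far the codes fell depends on the scaling between arrays, while their direction, for which they were chosen, was the same under the 6 scalings tried. Under 6 scalings the median log2 fold change of the run ranged from -4.45 with cyclic loess to -3.37 with none, and the median of all tested codes from -0.60 with the 8 features of a P code as the base to 0.21 with none. Relative to that median, the run lay at -4.52 with cyclic loess, -3.93 with quantile normalization and -3.58 with each of the 4 scalings that shift whole arrays or leave them. The least change of any code under any of the 6 was that of M344 without scaling, at -2.32. The features with a P code, whose meaning the sources used here do not give, moved the other way before scaling, with a median ratio of 4 day to 0 hour means of 1.71.

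**Figure D5:**
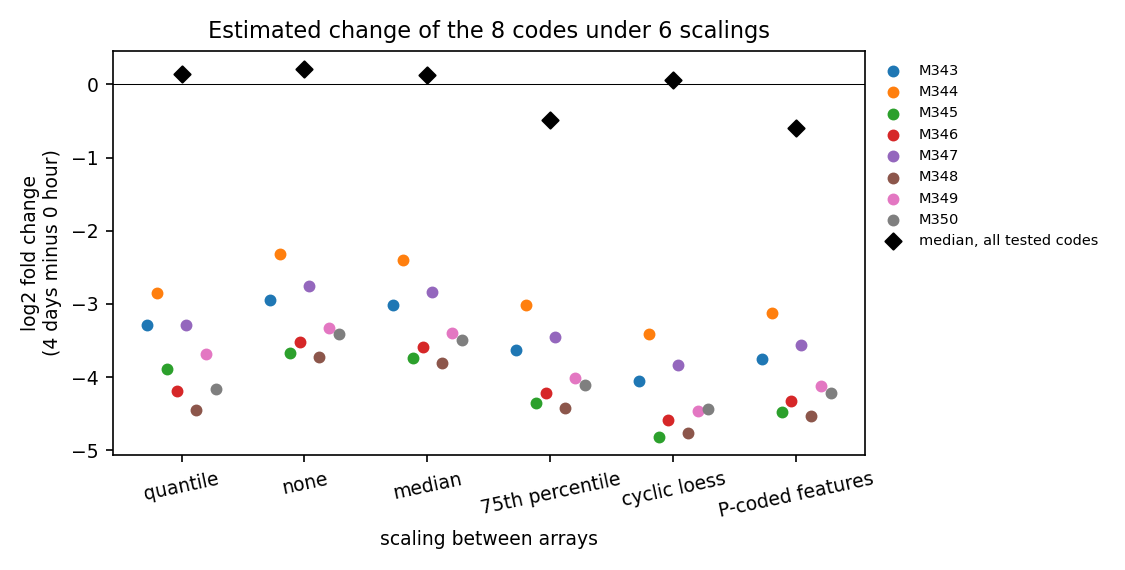
Estimated log2 fold change, 4 days minus 0 hour (vertical axis), of the 8 codes of the run under each of 6 scalings between arrays (horizontal axis), with black diamonds for the median of all 323 tested codes. All points of the run lie between -4.82 and -2.32, below the diamonds, which range from -0.60 to 0.21.

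The codes outside the run whose profile was most like it were found from the root mean square difference, over the 5 arrays, between the centred log2 values of a code and the mean centred profile of the run. The 8 codes themselves lay at 0.11 for M349 to 0.43 for M344. Among the other 315 tested codes, 2 fell within that range, and the median was 1.93. The mean profile is made from the 8 codes and mostly reflects the drop that they were chosen for. Their closeness to it therefore follows from the choice, and nothing is read from it. M200, at 0.26, had an intensity of 619 and 458 at 4 days, against 5061, 7738 and 3197 at 0 hour. Its log2 fold change of -3.56, with an SE of 0.24, lay inside the range of the run. M304, at 0.32, had 638 and 590 at 4 days, against 4294, 7096 and 2969 at 0 hour, and a log2 fold change of -3.30 with an SE of 0.23. Both stand far from the run in code number, and both were dimmest among the 0 hour arrays on replicate 3, as M345, M346, M349 and M350 were before scaling.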

How the data were processed

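Each of 5 one-colour arrays was deposited as a scanner file with 2 linear intensities per spot, its own and that of the local background. According to the authors, per the file headers, a fixed circle was laid on each spot of the Cy5 image, and neither crosstalk nor background was removed. The deposited value table holds the same intensity, spot minus local background, to within 5e-06. The sources used here give neither the image program nor the probe sequences or the names behind the codes.

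The titles supplied the groups and the replicate numbers. The codes of the run came from the mean of 3 spots per array. For the fit, spots were corrected with normexp (offset 50), converted to log2 and quantile normalized across the 1218 microRNA spots, leaving out 3 marked to be ignored. Limma 3.58.1 in R 4.3.3 compared the groups, with 3 residual and 4.04 prior degrees of freedom. The steps were tested on simulated data, with no change or with equal numbers of codes raised and lowered. The simulated arrays did not differ in scale, so this could not test the choice of scaling. The codes named are the run, the 2 codes on either side, the 2 most alike, and some chosen after their values were seen: the codes beside the threshold and the touching codes M326 and M367. The run, the tests and the lists were chosen with earlier results of these data known. Lists of named microRNAs could not be applied. Figures were drawn with matplotlib 3.10.9. Arrays limit the precision by their number, 2 against 3. All arrays of a group also carry the same library number, so SDs, SEs and calls may rest on technical spread only.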

Additional observations from a re-analysis of the deposited data

How the results depend on the processing

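The run held the same 8 codes under all 15 alternatives tried for its extent: thresholds of 0.5 and 0.25, 4 scalings, the median spot, no subtraction of background, ignored spots left out, the ratio taken within both shared replicate numbers, and each array left out. Both thresholds lie between the highest ratio in the run, 0.19, and the lower border ratio, 1.90, and no spot of the run was marked to be ignored. These alternatives could therefore not have removed a code. All 144 re-estimates of single codes, 8 codes under 18 settings of the fit, kept the lower direction, from -4.82 to -2.32. Since the codes were chosen for this drop, that direction is a description only. The filter settings leave the estimates unchanged by design, and the deposited value table repeats plain subtraction. In size, 38 of the 144 lay farther from the main estimate than the SD between arrays within groups of that code. The median log2 fold change of the run, -3.79, became -3.48 without background correction, -3.49 with plain subtraction, -3.49 with the deposited value table, -3.37 without scaling, -4.45 with cyclic loess, -4.17 when the P-coded features were the base, -4.06 when the 75th percentile was and -3.44 when the median was. It ranged from -3.93 to -3.56 with 1 array left out, the nearer to 0 without replicate 2 of the 4 day group. The lower codes over all tested, 59, became 143 when the P-coded features were the base and 120 when the 75th percentile was, and 36 to 67 with 1 array left out, the lowest again without that array, when replicate 1 stood alone for 4 days and was taken to vary like the 0 hour arrays. With the replicate number as a block, 74 codes were lower and the median of the run was -3.83. Across codes, the deviations from the group means had a correlation of 0.38 between the arrays numbered 1 and of 0.15 between those numbered 2, but of 0.25 between replicate 2 of the 4 day group and replicate 3 of the 0 hour group. With 2 arrays at 4 days, the deviations of one mirror the other, so these values are not independent and do not settle whether the numbers pair the arrays. The causes were not tested.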
